A study of Mus musculus with 9 samples.

Results

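The genes described here are 39 genes of the type I interferon response, chosen by symbol and read in macrophages of testis, epididymis and brain. Of the 39 symbols, 38 had a row among the 15434 genes of the deposited table, and Cmpk2 was not analysed here. Sperm mature in the epididymis, and the brain macrophages are named microglia in the titles. The mice were C57BL/6J in every group, with 3 RNA sequencing libraries per organ, 9 in all. The labels give no genetic change, culture, treatment or age. The sort in each organ took live CD45+ cells positive for CD11b and F4/80 and negative for both Ly6C and CD11c. The 3 libraries of an organ carry 1 mouse number, which differs between organs, so organ and mouse cannot be told apart and p-values measure the spread between libraries of an organ, which may be technical. The protocol speaks of pooling testis and epididymis suspensions in words that do not settle what was joined, and the organ named in each title was used. Brain replicate 2 has a misspelt tissue label and was placed by its title.

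Type I interferons are secreted proteins that almost every cell can make when it senses viral nucleic acid. They bind the receptor Ifnar1 and Ifnar2, whose kinases start a signal inside the cell. It reaches Stat2 and Irf9, which are part of a complex that binds the interferon-stimulated response element in promoters of responsive genes. Their products bind, cut or trap viral RNA, proteins and particles, and some amplify or end the response. Macrophages keep part of this set switched on without infection, and many of the genes also answer to interferon gamma.

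Reads assigned to genes numbered 2727092 to 4458688 per library, and 1 read was worth 0.808 to 1.11 normalised reads, the unit of all levels below. Of markers fixed for other cells, 7 monocyte genes took 8.71 to 12.02 reads per 10000 in testis, 0.448 to 0.715 in epididymis and 0.526 to 0.686 in brain, and 7 T and NK cell genes took 1.59 to 2.47, 0.207 to 0.543 and 0.233 to 0.506. Leydig cell genes reached 10.4 per 10000 in testis and germ cell genes 4.65 in testis and 2.25 in epididymis. The 7 microglia genes took 50.9 to 57.1 per 10000 in brain, 10.99 to 15.3 in epididymis and 1.39 to 2.39 in testis. Itgax, the gene for CD11c, against which the cells were sorted, stood at 265.5, 209 and 294 in epididymis and at 0 in all brain libraries. It is 1 of 4 dendritic cell genes with a row, and 3 of the 4 had a higher mean log2 value in testis than in epididymis. Together the 4 took 1.06 to 1.61 per 10000 in testis, 1.28 to 1.48 in epididymis and 0.383 to 0.518 in brain. The 6 plasmacytoid dendritic cell genes, which mark a main source of interferon but include the microglia gene Siglech, took 3.23 to 4.93 per 10000 in testis, 4.28 to 6.48 in epididymis and 13.4 to 16.1 in brain, and Ly6d, Pacsin1 and Cox6a2 of them were at 0 in all epididymis libraries. The 15 immediate early and dissociation stress genes took 392 to 441 per 10000 in testis, 149 to 159 in epididymis and 212 to 324 in brain. Their part in the results below was not tested.

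Interferon response genes took the largest share of reads in the epididymis and the smallest in the brain. The 38 genes together had 20.5, 18.6 and 18.7 reads per 10000 assigned reads in testis, 29.0, 24.6 and 26.1 in epididymis and 11.1, 10.9 and 10.6 in brain. The 3 groups of libraries did not overlap in this sum. In bulk samples, fewer cells that use a gene and less RNA per cell cannot be told apart. Between 6 and 11 of the 38 genes were at 0 in a brain library, against 2 to 4 in a testis or epididymis library. Of all 15434 genes, 11112 to 12301 were above 0 in a brain library, 10687 to 12302 in a testis library and 10551 to 11171 in an epididymis library.

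**Figure D1:**
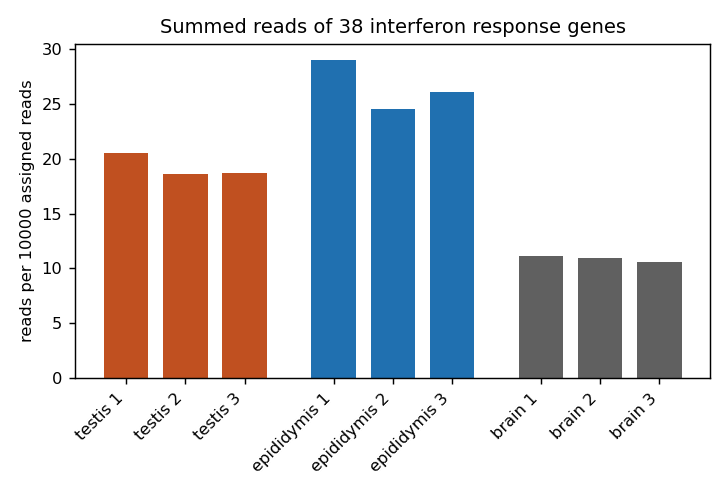
Summed reads of the 38 interferon response genes in each library, per 10000 reads assigned to genes (vertical axis), with 1 bar per library. Epididymis libraries stand highest, from 24.6 to 29.0, testis libraries between, from 18.6 to 20.5, and brain libraries lowest, from 10.6 to 11.1.

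Of the 33 genes that passed a filter of at least 10 normalised reads in at least 3 libraries, 12 rose in testis against brain and 9 rose in epididymis against brain, at an adjusted p below 0.05 by limma over all 11766 tested genes. Over all tested genes, 6.82% were called higher in testis than in brain and 2.99% higher in epididymis than in brain. None of the 33 was called lower in either comparison by limma, edgeR or DESeq2, and none had an unadjusted p under 0.05 in that direction by any of them. Among all tested genes, 4.83% were called lower in testis and 1.8% lower in epididymis than in brain. A moderated F test over the 3 organs called 14 of the 33, where it called 11.4% of all genes. The filter was passed through testis and epididymis libraries alone by 6 genes, Oas2, Oas3, Oasl1, Ifitm2, Bst2 and Zbp1. These could hardly have been called lower than in brain, and Oas2 and Ifitm2 are among the 12 and Oasl1 among the 9. Without testis replicate 2, or without brain replicate 2, 7 genes rose in testis against brain, and without epididymis replicate 1, 5 rose in epididymis against brain. The F test called 9 without brain replicate 1. Without a variance trend in limma, the testis calls of Ifit2, Mx1, Irf7, Xaf1, Parp14 and Sp100 were lost (adjusted p = 0.059 to 0.14), as were the epididymis calls of Ifit3, Oas1a, Irf7, Parp14 and Sp100 (0.064 to 0.12). A fit of only the 6 libraries compared called 4 in epididymis against brain.

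Complete separation of libraries was more frequent than the calls. All 3 testis libraries lay above all 3 brain libraries for 16 of the 33 genes, against 15.9% of all tested genes, and below them for 1, Gbp3, against 14.9%. All 3 epididymis libraries lay above all 3 brain libraries for 21, against 10.5%, and below them for 0, against 11.5%. Of the 6 genes that passed the filter without a brain library, Oas2, Oas3 and Ifitm2 are among the 16. Among the 21 are Oas2, Oas3, Oasl1, Bst2 and Zbp1. The filter left these 6 little room to go the other way. The median log2 difference of the 33 genes was 1.19 in testis against brain, beside -0.07 over all tested genes, with 28 above 0 and 5 below. In epididymis against brain it was 2.44, beside -0.13, with 29 above 0 and 4 below, and 2.37 with the 2 genes that had no brain read at their bound. The same 6 genes are all among those above 0 in both comparisons. These differences are on the scale of log2(normalised reads + 1), which understates the change of low genes.

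**Figure D2:**
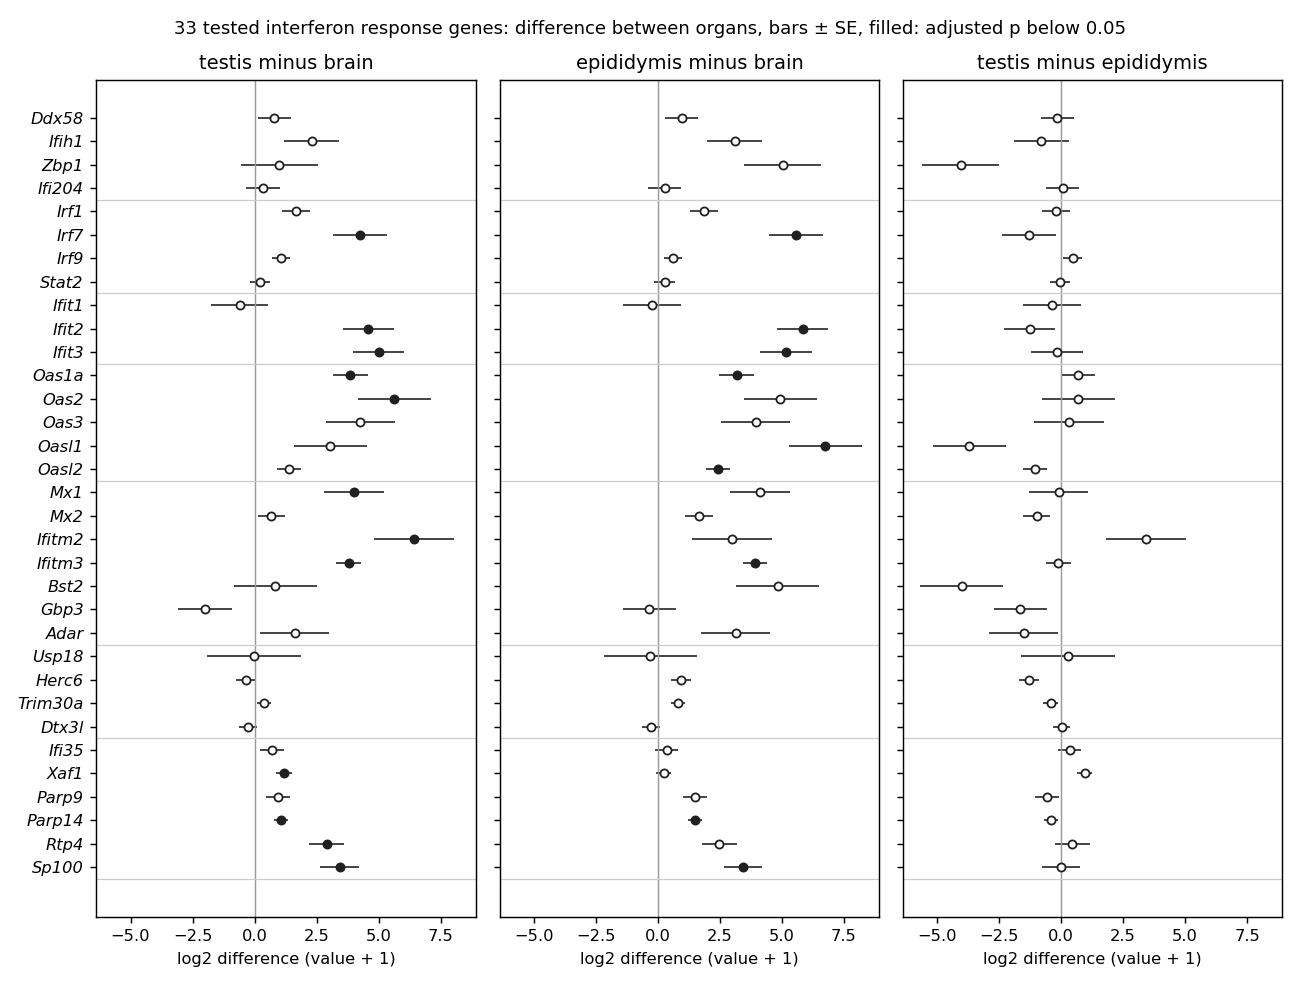
Difference in mean log2(normalised reads + 1) between organs (horizontal axes) for the 33 tested genes, ordered by role, with bars of 1 SE and filled points where limma's adjusted p is below 0.05. Filled points lie on the right in both panels against brain, 12 in the first and 9 in the second, and there is none between testis and epididymis.

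The 4 genes for sensing nucleic acid did not pass in any comparison. Ddx58 encodes the RNA sensor RIG-I and ranged from 61.4 to 295 in testis, 101 to 265 in epididymis and 52.4 to 155 in brain. Ifih1, which encodes the sensor of long double-stranded RNA, stood at 241, 116 and 112 in testis, 251, 256 and 258 in epididymis and 118, 1.11 and 107 in brain, with brain replicate 2 near 0. The epididymis libraries lay above all others (log2 difference from brain 3.09, SE 1.12, limma adjusted p = 0.15). Zbp1, a sensor of Z-form nucleic acid linked to cell death, stayed within 82.5 to 86.4 in epididymis, against 0 to 12.1 in testis and 0 to 7.11 in brain. That gap was not called (log2 difference from brain 5.04, SE 1.55, limma adjusted p = 0.082), although DESeq2 on the recovered reads gave an adjusted p of 0.021. Ifi204, of the p200 family that binds DNA, overlapped among all 3 organs, between 66.4 and 328.

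Irf7, the transcription factor that amplifies interferon production, had 72.5, 403 and 204 normalised reads in testis, 565, 258 and 624 in epididymis and 0, 35.7 and 23.1 in brain. Every testis and epididymis library exceeded every brain library, and testis replicate 1 was the lowest of the 6. Irf7 rose in testis against brain (log2 difference 4.25, SE 1.09, limma adjusted p = 0.018) and in epididymis against brain (5.55, SE 1.09, adjusted p = 0.0069). The testis call was lost without testis replicate 2 or 3 (limma adjusted p = 0.11 and 0.069).

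The other 3 transcription factor and signal complex genes were not called. Irf9, the DNA-binding part of the signal complex, stood at 534, 436 and 582 in testis, 220.0, 413 and 569 in epididymis and 207, 344 and 203 in brain, so testis libraries lay above brain while epididymis overlapped both (testis minus brain 1.07 on the log2 scale, SE 0.37, limma adjusted p = 0.074). Stat2, its partner, overlapped throughout, between 159 and 399.1, with a log2 difference of 0.23 from brain in testis and 0.27 in epididymis. Irf1, an early activator shared with interferon gamma, had 125, 281 and 534 in testis, 317, 285 and 316 in epididymis and 89.3, 37.9 and 166 in brain. Its epididymis libraries lay above brain (log2 difference 1.87, SE 0.57, limma adjusted p = 0.078), and it passed without testis replicate 1 or brain replicate 3, at 0.049 and 0.042.

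Of the 3 Ifit genes, whose proteins bind foreign RNA ends and the translation machinery, Ifit2 and Ifit3 rose in both organs against brain. Ifit2 stood at 188, 187 and 93.2 in testis, 361, 382 and 333 in epididymis and 0, 37.9 and 5.33 in brain. The 3 organs did not overlap, with epididymis highest (log2 difference from brain 4.58, SE 1.03, limma adjusted p = 0.0085 in testis, and 5.84, SE 1.03, adjusted p = 0.0034 in epididymis). Ifit3 had 195, 167 and 206 in testis, 456, 76.9 and 275 in epididymis and 10.02, 0 and 17.8 in brain. Its epididymis libraries spread widely around the tight testis group, and both lay above brain (5.002, SE 1.04, limma adjusted p = 0.0049 in testis, and 5.18, SE 1.04, adjusted p = 0.0083 in epididymis). The testis call held under all 19 alternatives, and the epididymis call was lost without epididymis replicate 1 (limma adjusted p = 0.065). Ifit1, on the same stretch of chromosome 19, was low and overlapped everywhere, from 10.8 to 85.5 in epididymis, 13.7 to 40.4 in testis and 28.4 to 43.5 in brain. On GRCm38, Ifit3 lies on chromosome 19 from 34583531 to 34588731 and Ifit1 from 34640871 to 34650009, both on the plus strand.

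Ifit1 and Ifit3 are shown by promoter because they carry the same element next to unlike levels. The stretches below are RefSeq sequence of GRCm38.p6, and capitals mark each match to the core of the interferon-stimulated response element, GAAANNGAAA on either strand. Both hold 2 matches, and both matches read TTTC first because they lie on the strand opposite to the gene.
Ifit3 (chr19:34583343-34583446, plus strand, 186 to 83 bases before the start): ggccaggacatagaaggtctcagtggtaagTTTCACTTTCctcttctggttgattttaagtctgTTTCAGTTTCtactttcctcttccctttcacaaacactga
Ifit1 (chr19:34640755-34640843, plus strand, 134 to 46 bases before the start): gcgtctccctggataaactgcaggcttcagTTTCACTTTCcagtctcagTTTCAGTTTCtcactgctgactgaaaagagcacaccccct

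Active Oas enzymes make short adenylate chains that switch on RNase L, an enzyme that degrades RNA. All 5 Oas and Oas-like genes of the list had a mean above brain in both organs. Oas1a stood at 399.6, 223 and 212 in testis, 161, 184 and 154 in epididymis and 56.5, 11.2 and 7.999 in brain. The 3 organs did not overlap, here with testis highest (log2 difference from brain 3.86, SE 0.701, limma adjusted p = 0.0017 in testis, and 3.18, SE 0.701, adjusted p = 0.015 in epididymis). The testis call held under all 19 alternatives, while the epididymis call was lost without epididymis replicate 1 or 2 or brain replicate 2 (limma adjusted p = 0.053 to 0.058). Oas2 had 57.98, 82.4 and 23.9 in testis, 48.2, 6.57 and 76.5 in epididymis and no read in any brain library. With brain at a floor of 3 reads per library, Oas2 was at least 18.8-fold higher in testis and at least 15.0-fold higher in epididymis, and floors and intervals cover counting error only. It was called in testis (log2 difference 5.63, SE 1.47, limma adjusted p = 0.02), a call lost without testis replicate 1 or 2 or any brain library (0.052 to 0.07), and not in epididymis (0.071). In epididymis it passed in 4 of 19 alternatives, among them limma without the variance trend (adjusted p = 0.03), edgeR (0.044) and DESeq2 (0.00025). Oas3 had 2 reads over the 3 brain libraries against 98 in testis and 85 in epididymis, a ratio of 45.3 (95% interval 12.2 to 379.5) and of 42.9 (11.5 to 359.7) after scaling. Neither ratio went with a call (limma adjusted p = 0.063 in testis and 0.14 in epididymis). Both differences passed without the variance trend (limma adjusted p = 0.0062 and 0.015) and by DESeq2 (0.0095 and 0.021), and neither passed by edgeR (0.14 and 0.23).

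The Oasl genes encode Oas-like proteins, of which Oasl1 restrains translation of Irf7, and both were highest in epididymis. Oasl1 stood at 23.8, 26.7 and 1.71 in testis, 191, 91.9 and 228 in epididymis and 0, 2.23 and 0 in brain. Epididymis libraries were above all others, and testis replicate 3 lay among the brain libraries. Oasl1 rose in epididymis against brain (log2 difference 6.76, SE 1.47, limma adjusted p = 0.013), on 519 reads against 2, a ratio of 261.7 (95% interval 72.1 to 2167). The call was lost without epididymis replicate 1 or brain replicate 1 (limma adjusted p = 0.051 and 0.055). Oasl2 had 129, 114 and 180.4 in testis, 282, 337 and 252 in epididymis and 77.4, 34.6 and 53.3 in brain. The organs did not overlap, and Oasl2 rose in epididymis against brain under all 19 alternatives (2.44, SE 0.49, limma adjusted p = 0.0078) but was not called in testis (1.39, SE 0.49, adjusted p = 0.083).

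The promoters of Oas1a and Oas3, 2 genes of 1 cluster on chromosome 5 that lie on the minus strand, are shown because both organs exceeded brain at each. Oas1a spans 120896256 to 120907521 and Oas3 spans 120753098 to 120777661 on GRCm38. Oas1a has 2 overlapping matches to the core within its last 20 bases before the start, and Oas3 has 1. The windows of Oasl1 and Oasl2, both called above brain in epididymis, hold no match.
Oas1a (chr5:120907526-120907575, minus strand, 50 to 1 bases before the start): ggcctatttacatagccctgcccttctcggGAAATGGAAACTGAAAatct
Oas3 (chr5:120777695-120777764, minus strand, 105 to 36 bases before the start): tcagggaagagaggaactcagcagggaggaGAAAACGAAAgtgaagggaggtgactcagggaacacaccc

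Of 7 tested genes whose products block virus entry, budding or replication, 3 rose in testis and 1 in epididymis against brain. Of all tested genes, 6.82% and 2.99% were called higher in these comparisons. Ifitm3, a membrane protein that stops viruses in endosomes, stood at 517, 659 and 249 in testis, 582, 543 and 339 in epididymis and 23.7, 56.9 and 21.3 in brain. Testis and epididymis overlapped each other and lay above brain. Ifitm3 rose in testis (log2 difference 3.79, SE 0.49, limma adjusted p = 8.8e-05) and in epididymis (3.91, SE 0.49, adjusted p = 0.00021) against brain, and both calls held under all 19 alternatives. Per kilobase of exon it had the highest mean level of the 38 genes in testis and in epididymis, at 700.4 and 719.5 normalised reads per kb, against 50.1 in brain, where Trim30a was highest at 93.2. Ifitm2, on the same stretch of chromosome 7, had 184, 33.1 and 98.3 in testis, 0, 30.02 and 15.1 in epididymis and no read in brain. With brain at the floor the mean of Ifitm2 was at least 36.1-fold higher in testis and at least 5.16-fold higher in epididymis. The call in testis (log2 difference 6.42, SE 1.603, limma adjusted p = 0.016) was lost without testis replicate 1 or any brain library (0.052 to 0.06). In epididymis, where replicate 1 had no read either, Ifitm2 was not called (limma adjusted p = 0.39), although DESeq2 gave an adjusted p of 0.014. Ifitm2 shares 268 exonic bases with another annotated gene on its strand, so part of its reads may be credited to either gene.

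Mx1 and Mx2 encode related large GTPases, and laboratory strains such as C57BL/6 carry a defective Mx1. GENCODE M21 types Mx2 as a polymorphic pseudogene, so RNA of neither gene speaks for a working protein. Mx1 stood at 48.7, 180.2 and 176 in testis, 169, 235 and 47.4 in epididymis and 18.2, 0 and 18.7 in brain. Both organs were above brain, with testis replicate 1 and epididymis replicate 3 far below the rest of their groups. Mx1 rose in testis against brain (log2 difference 4.01, SE 1.201, limma adjusted p = 0.041), in 9 of 19 alternatives, and lost the call without testis replicate 2 or 3, epididymis replicate 1 or 2 or brain replicate 2 (0.062 to 0.15). The difference in epididymis was not called (4.11, SE 1.201, limma adjusted p = 0.067), but it passed by DESeq2 (0.0071) and in limma at a pseudocount of 10 (0.031). Mx2 had 79.7, 169.6 and 98.3 in testis, 193, 251 and 217 in epididymis and 35.5, 122 and 72.9 in brain. Its epididymis libraries lay above both other organs without a call (log2 difference from brain 1.67, SE 0.56, limma adjusted p = 0.11).

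The remaining genes of this role gave no call. Bst2, which tethers budding virions to the cell, was between 41.0 and 111 in epididymis, against 0 to 30.02 in testis and 0 to 8.89 in brain. Adar, which edits double-stranded RNA, had 59.01, 72.7 and 105 in testis, 447, 111 and 218 in epididymis and 169, 0 and 94.2 in brain. Its testis libraries lay below epididymis, while brain overlapped both. Adar shares 1365 exonic bases with Chrnb2 on the opposite strand, and the kit does not mark strand. Gbp3, a guanylate-binding protein, was 88.1 to 128 in brain, 64.6 to 104 in epididymis and 2.07 to 77.6 in testis (testis minus brain -2 on the log2 scale, SE 1.07, limma adjusted p = 0.28). Gbp2 reached 47.3 in 1 epididymis library and was at most 11.3 in the other 8. Isg20, an exonuclease, was at 0 in every epididymis library and at most 20.2 elsewhere. Rsad2 encodes viperin, which makes a nucleotide that ends viral RNA chains. All its 346 reads came from epididymis replicate 2, at 324.5 normalised reads, and the other 8 libraries had none. Gbp2, Isg20 and Rsad2 did not pass the filter.

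In the ISG15 and ubiquitin-like pathway, none of the 4 tested genes was called. Isg15, the ubiquitin-like protein that is attached to others during the response, is a strongly induced gene in infection, but here it was between 3.11 and 11.1 in testis, 7.50 and 10.9 in epididymis and 0 and 3.34 in brain, under the filter. Usp18, which removes it and quiets the receptor, was at most 25.9 in any library. Herc6, the enzyme that attaches it in mice, had 192, 112 and 251 in testis, 639, 465 and 263 in epididymis and 261, 182 and 236 in brain. Epididymis lay above both other organs without a call (log2 difference from brain 0.93, SE 0.41, limma adjusted p = 0.26). Herc6 shares 1269 exonic bases with another annotated gene on its strand, so part of its reads may be credited to either gene. Trim30a, which restrains Toll-like receptor signals, had 755, 410.4 and 401 in testis, 736, 563 and 721 in epididymis and 389.8, 416 and 344 in brain. Its testis libraries overlapped both other organs, and epididymis lay above brain (0.81, SE 0.29, limma adjusted p = 0.15). Dtx3l, a ubiquitin ligase that works with Parp9, overlapped among organs, from 207 to 552, and shares 458 exonic bases with Parp9 on the opposite strand, which this library kit cannot separate.

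Low Isg15 and a single library of Rsad2 stand beside promoters that hold the core, so both are printed. Isg15 has 3 overlapping matches in a row, and Rsad2 has 1.
Isg15 (chr4:156200845-156200926, minus strand, 108 to 27 bases before the start): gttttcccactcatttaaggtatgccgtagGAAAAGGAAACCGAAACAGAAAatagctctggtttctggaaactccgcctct
Rsad2 (chr12:26456533-26456602, minus strand, 150 to 81 bases before the start): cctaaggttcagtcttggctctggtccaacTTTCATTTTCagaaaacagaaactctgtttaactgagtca

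Of the other 7 induced genes, 6 were tested. Of these 6, 4 rose in testis against brain and 2 in epididymis, where 6.82% and 2.99% of all tested genes were called higher. Parp14, which adds single ADP-ribose units to proteins, had 410.0, 693 and 584 in testis, 725, 814 and 668 in epididymis and 204, 272 and 319 in brain. Both organs lay above brain, by 1.07 on the log2 scale in testis (SE 0.29, limma adjusted p = 0.023) and 1.49 in epididymis (SE 0.29, adjusted p = 0.0061). The testis call was lost without testis replicate 2 or 3 or brain replicate 1 or 2 (0.056 to 0.11). Sp100, a component of nuclear bodies that silences viral genomes, stood at 354, 296 and 139 in testis, 396, 120.1 and 312 in epididymis and 26.4, 5.57 and 64.9 in brain. Both organs lay above brain (log2 difference 3.43, SE 0.77, limma adjusted p = 0.0085 in testis, and 3.44, SE 0.77, adjusted p = 0.016 in epididymis). The epididymis call was lost without epididymis replicate 1 or 3 or brain replicate 2 (0.054 to 0.091).

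Rtp4, an interferon-induced chaperone of membrane receptors, had 231, 204 and 112 in testis, 192, 58.1 and 187 in epididymis and 30.97, 27.9 and 12.4 in brain. It rose in testis against brain (log2 difference 2.92, SE 0.71, limma adjusted p = 0.013), a call lost without testis replicate 1 or 2 (0.058 and 0.061), and in epididymis reached 0.06, or 0.032 without epididymis replicate 2. Xaf1, a partner of the apoptosis inhibitor XIAP, had 706, 482 and 805 in testis, 393, 317 and 303 in epididymis and 246, 248 and 378 in brain. Testis libraries lay above both other organs, while epididymis and brain overlapped. Xaf1 rose in testis against brain (log2 difference 1.19, SE 0.31, limma adjusted p = 0.019), lost without testis replicate 1 or 3 or brain replicate 1 or 2 (0.061 to 0.085), and its difference from epididymis was 0.95 (SE 0.31, adjusted p = 0.1). Parp9 had 203, 173 and 106 in testis, 211, 168 and 345 in epididymis and 81.97, 57.97 and 111 in brain, with epididymis above brain and no call (limma adjusted p = 0.1). Ifi35, which binds Nmi, had 204, 158 and 207 in testis, 177, 189.5 and 97.03 in epididymis and 156, 70.2 and 142 in brain, with testis just above brain (limma adjusted p = 0.43). Ifi44 stayed at or under 25.9 in every library and did not pass the filter.

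**Figure D3:**
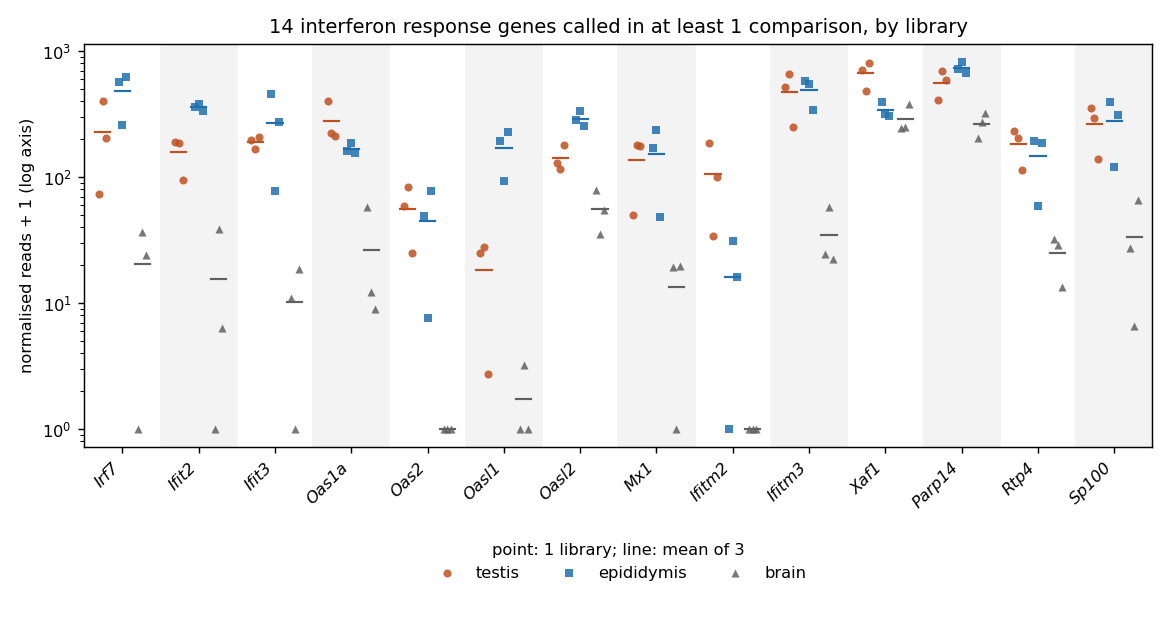
Normalised reads + 1 on a log axis for the 14 genes called in at least 1 comparison, with 1 point per library and a line at the mean of the 3 libraries of an organ. The mean line of brain is the lowest for each of the 14 genes, with 0 reads in all 3 libraries for Oas2 and Ifitm2, and the highest line is that of epididymis for Oasl1 and of testis for Oas1a and Xaf1.

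Between testis and epididymis, none of the 33 genes was called in either direction by limma, where 2.49% of all tested genes were higher and 1.9% lower in testis. At an unadjusted p under 0.05, limma had 2 genes higher in testis, Ifitm2 and Xaf1 (edgeR 1 and DESeq2 1), and 5 lower, Oasl1, Oasl2, Bst2, Zbp1 and Herc6 (edgeR 3 and DESeq2 4), beside 9.65% and 7.86% of all tested genes. DESeq2 on the recovered reads called 1 gene after adjustment, Oasl1 at 0.037. All 3 testis libraries lay above all 3 epididymis libraries for 3 genes, Oas1a, Ifitm2 and Xaf1, against 11% of all tested genes. They lay below for 9 genes, Ifit2, Mx2, Oasl1, Oasl2, Ifih1, Bst2, Zbp1, Herc6 and Adar, against 8.8%. The median log2 difference was -0.17 with 11 genes above 0 and 22 below, beside 0.10 over all tested genes. The largest differences toward epididymis were Zbp1 at -4.05 (SE 1.55, limma adjusted p = 0.18), Bst2 at -4.002 (SE 1.68, adjusted p = 0.23) and Oasl1 at -3.699 (SE 1.47, adjusted p = 0.2), and toward testis Ifitm2 at 3.43 (SE 1.603, adjusted p = 0.28).

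Of 10 interferon genes listed, 2 had a row. Ifnk appeared in epididymis replicate 3 alone, at 66.8 normalised reads, and was not tested. Ifng, the type II interferon made by T and NK cells, stood at 92.1, 105 and 17.9 in testis, 0, 0 and 5.39 in epididymis and 0 in all brain libraries, at least 24.6-fold higher in testis than in brain (log2 difference 5.84, SE 1.42, limma adjusted p = 0.013). The call was lost without any 1 brain library (0.05 to 0.058), and Ifng passed the filter through testis libraries alone. Of 6 tested T and NK cell markers, 4 rose in testis against brain, where 6.82% of all tested genes were called higher. Cd3e and Lck were at 0 in all brain libraries, and the part of these markers in the Ifng difference was not tested. Of the receptor genes, Ifnar1 overlapped among organs, from 72.0 to 376, and Ifnar2 had 163, 452 and 257 in testis, 623, 736 and 585 in epididymis and 452, 264 and 416 in brain, with epididymis above both (testis minus epididymis -1.27, SE 0.36, limma adjusted p = 0.063).

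Of 16 genes for nucleic acid sensing, 3 fell and 1 rose in testis against brain, 3 fell in testis against epididymis, and none passed in epididymis against brain. Of all genes tested, 4.83% were called lower and 6.82% higher in testis than in brain, and 1.9% lower in testis than in epididymis. Tmem173, which encodes the adaptor STING, had 429.7, 365 and 372 in testis, 985, 991 and 1198 in epididymis and 1479, 1815 and 1887 in brain. The 3 organs did not overlap, and Tmem173 fell in testis against brain (-2.14, SE 0.21, limma adjusted p = 6.8e-06) and against epididymis (-1.44, SE 0.21, adjusted p = 0.0011). Tlr3, the endosomal receptor for double-stranded RNA, stood at 139, 64.6 and 131 in testis, 335, 286 and 269.5 in epididymis and 421, 496 and 484 in brain, and fell by 2.13 on the log2 scale against brain (limma adjusted p = 0.0011). Against epididymis the log2 difference of Tlr3 was -1.48 (SE 0.37, limma adjusted p = 0.033), and this call was lost without testis replicate 2 or any 1 epididymis or brain library (0.053 to 0.1). Irf8, a macrophage transcription factor, also fell in testis against both organs, and the call against epididymis was lost without testis replicate 1 or epididymis replicate 2 (0.065 and 0.061). Trim25, which ubiquitinates RIG-I, rose against brain (limma adjusted p = 0.035, lost without any 1 testis or brain library, 0.061 to 0.14). Without the variance trend, limma's adjusted p against epididymis was 0.14 for Tlr3, 0.081 for Tmem173 and 0.3 for Irf8, and against brain it was 0.19 for Irf8 and 0.14 for Trim25, so that these calls were lost. Of 10 tested genes that restrain the response, Cish rose in testis against both organs and Ptpn6 rose in epididymis against brain. Over all tested genes, 6.82% were called higher in testis than in brain, 2.49% in testis than in epididymis and 2.99% in epididymis than in brain. The Cish calls were lost without any 1 testis library, epididymis replicate 2 or 3 or brain replicate 1 or 2 (limma adjusted p = 0.065 to 0.13), and that of Ptpn6 without any 1 library other than brain replicate 3 (0.051 to 0.2). Without the variance trend, limma's adjusted p was 0.06 for Cish against epididymis and 0.32 for Ptpn6.

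Of 49 tested interferon-stimulated genes outside the 39, 14 rose and 1 fell in testis against brain and 17 rose and 0 fell in epididymis against brain, with median log2 differences of 1.26 and 1.27, where 6.82% and 2.99% of all tested genes were called higher. Samd9l, which restricts poxviruses and cell growth, had 199.8, 229 and 292 in testis, 123, 61.9 and 121 in epididymis and no read in brain, at least 82.5-fold and 34.9-fold higher, and both differences were called under all 19 alternatives. Samd9l, and Oas1g, which was also called in both organs, passed the filter through testis and epididymis libraries alone. Mndal and Ifi203, p200 genes chosen after their values were seen, held their calls under all 19 alternatives, with Mndal at 652, 833 and 896 in testis, 1188, 1123 and 1129 in epididymis and 18.2, 36.8 and 48.9 in brain. Ifi203 had 595, 748 and 629 in testis, 1025, 731 and 925 in epididymis and 26.4, 74.7 and 21.3 in brain. The p200 genes are close copies of one another, as are the Oas1, Ifit, Ifitm, Gbp and Trim30 genes, and reads shared between copies make each value uncertain.

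In testis against epididymis, 3 of the 49 were called lower and 1, Slfn1, higher, beside 1.9% and 2.49% of all tested genes. The Slfn1 call was lost without any 1 epididymis library (limma adjusted p = 0.063 to 0.068), and neither edgeR (adjusted p = 0.2) nor DESeq2 (0.07) made it on the recovered reads. Slfn1 had no read outside testis and passed the filter through testis libraries alone. Cxcl10, a chemokine often used as an interferon readout, had 185, 287 and 359 in testis, 935, 906 and 1229 in epididymis and 138, 132 and 146 in brain. It rose in epididymis against brain (2.87, SE 0.32, limma adjusted p = 5.9e-05) and fell in testis against epididymis (-1.92, SE 0.32, adjusted p = 0.0024). Tor3a, an ATPase of the endoplasmic reticulum, had 556, 419 and 422 in testis, 1466, 1448 and 1729 in epididymis and 222, 234 and 296 in brain and was also highest in epididymis (testis minus epididymis -1.74, SE 0.25, limma adjusted p = 0.00093). Lap3, an aminopeptidase, had 36.2, 152 and 103 in testis, 678, 405 and 432 in epididymis and 274, 391 and 288 in brain, and fell in testis against epididymis (-2.55, SE 0.47, limma adjusted p = 0.0052) and against brain (-1.91, SE 0.47, adjusted p = 0.015, lost without brain replicate 2 at 0.076). Without the variance trend, the falls of Cxcl10, Tor3a and Lap3 in testis against epididymis had a limma adjusted p of 0.057, 0.052 and 0.081, and that of Lap3 against brain 0.096.

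Among 15 tested genes that lean toward interferon gamma, 4 rose in testis and 3 in epididymis against brain, where 6.82% and 2.99% of all tested genes were called higher. Ciita, which switches on MHC class II genes, had 688, 379 and 606 in testis, 239, 452 and 360.1 in epididymis and 4.55, 0 and 18.7 in brain, and rose in both organs (6.82, SE 0.85, limma adjusted p = 6.1e-05, and 6.15, SE 0.85, adjusted p = 5e-04) under all 19 alternatives. Gbp8, a guanylate-binding protein, had 31.1, 74.3 and 23.1 in testis, 155, 186 and 99.2 in epididymis and no read in brain, at least 14.7-fold and 50.3-fold higher. Both Gbp8 differences were called, and the call in testis was lost without testis replicate 2 (limma adjusted p = 0.063). Of the called genes of this list, Ciita alone also reached the filter's level in a brain library. The others, Gbp8 among them, passed the filter through testis and epididymis libraries alone, so they could hardly have been called lower there.

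**Figure D4:**
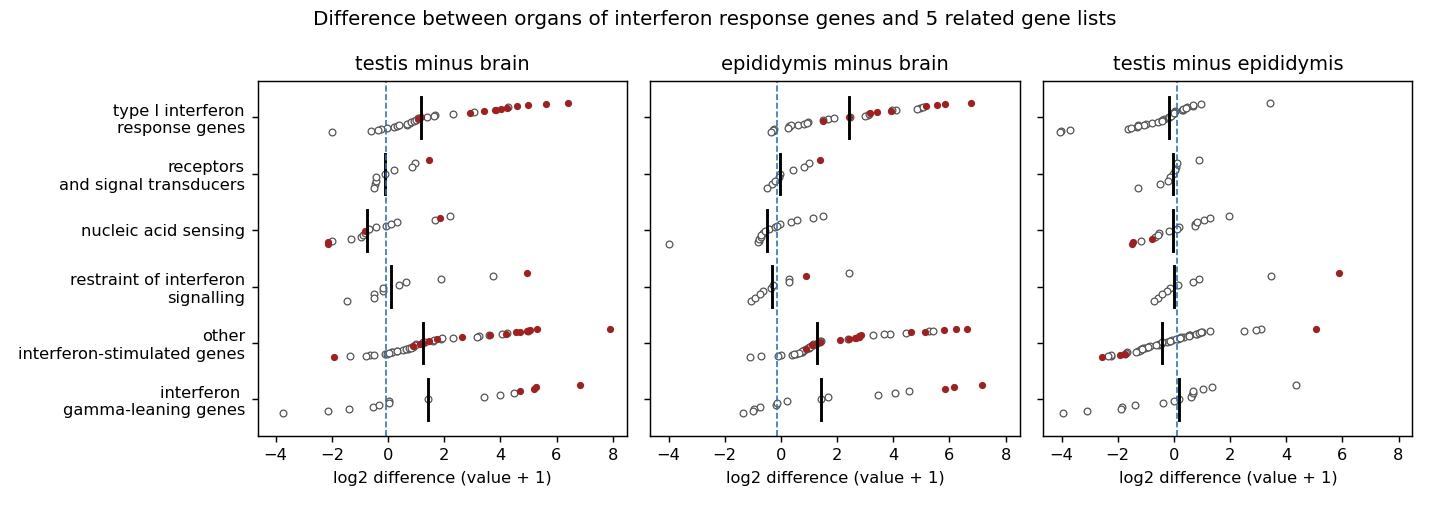
Difference in mean log2(normalised reads + 1) between organs (horizontal axes) for each tested gene of the type I interferon response and of 5 related lists, with red points where limma's adjusted p is below 0.05, a black bar at the list's median and a dashed line at the median of all tested genes. Height within a list only spreads the points. Against brain, the medians of the response genes and of the other interferon-stimulated genes lie right of the dashed line, from 1.19 to 2.44, and those of the sensing list lie left of it, at -0.74 in testis and -0.49 in epididymis.

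Promoter letters were compared with all genes as a description. RefSeq windows of GRCm38.p6 matched 29 of the 38 genes, and the 250 bases before the start held the core GAAANNGAAA, on either strand and counting overlapping matches, in 12 of the 29, or 41.4%. The share was 3.46% of all 27025 genes with a window and 3.34% of the 9022 tested ones. A gamma-activated site, TTCNNNGAA on either strand, lay in 5 of the 29, or 17.2%, Ifit2, Oas1a, Irf1, Bst2 and Isg20, beside 8.13% of all genes. The core was in 3 of the 10 genes with a window that were called above brain (Ifit3, Oas1a and Ifitm2), in 6 of 14 tested without a call and in 3 of 5 not tested. Stat2, which overlapped among organs, held 1 match far from its start.
Stat2 (chr10:128270248-128270315, plus strand, 250 to 183 bases before the start): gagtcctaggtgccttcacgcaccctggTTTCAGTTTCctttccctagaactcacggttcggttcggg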

How the data were processed

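RNA sequencing libraries of sorted macrophages from testis, epididymis and brain, 3 per organ, were analysed. The authors deposited 1 table of signal values, in which each library's gene reads are scaled by 1 factor, per the file headers and the values themselves. The submitters' processing notes name CASAVA 1.8, Bowtie2 2.2.1, Partek 6.6, DESeq2 and the mm10 genome. Reads were counted per gene by a rule not given in the sources used here. Of all values in each library, 100% were whole multiples of the value of 1 read (largest deviation 3.9e-10 reads), so whole reads were recovered. Libraries were grouped by title, and replicates are numbered in the order of the sample list.

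Values were analysed as log2(value + 1). Genes at 10 or more in at least 3 libraries, 11766 in all, were fitted with 1 mean per organ by limma 3.58.1 in R 4.3.3, with a variance trend (6 residual and 9.08 prior degrees of freedom), and adjusted by Benjamini-Hochberg over all tested genes. The alternatives were other pseudocounts (0.5 and 10), filters, scalings, fits of 6 libraries, each library left out, and edgeR 4.0.16 and DESeq2 1.42.0 on recovered reads. The fit was tested on simulated data. Folds against an organ without reads used a floor of 3 reads per library.

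The genes and lists were chosen with earlier results of these data known. Library values were given for genes called in any comparison, and for those separated between any 2 organs with a highest mean of at least 110, and other genes by range. Of each related list, up to 3 called genes per direction could be named. Positions are from GENCODE M21 on GRCm38, and promoter sequences from RefSeq. The kit does not mark strand. A result of the related lists is not reported here.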

Additional observations from a re-analysis of the deposited data

How the results depend on the processing

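No gene of the 33 reversed a called direction under any of the 19 alternatives. The 12 genes higher in testis than in brain became 7 without the variance trend, and 7 to 12 with 1 library left out. The 9 higher in epididymis than in brain became 4 with only the 6 libraries compared, 15 by DESeq2, and 5 to 10 with 1 library left out. The F test's 14 became 9 without the trend and 9 to 14 with 1 library left out. Against epididymis, 0 genes lower in testis became 2 at a pseudocount of 10, Oasl1 and Zbp1, and 1 by DESeq2. The other counts stayed within 1.5 times. The cause of these changes was not tested. Rescaling libraries to the same total moved the median of all tested genes from -0.07 to -0.29 in testis against brain, and 9 genes were then called higher. No paired analysis was possible because the labels carry no shared replicate numbers. The common coefficient of variation between libraries of an organ was 0.913, as estimated by edgeR. Pearson correlations of log2(value + 1) over tested genes were 0.695 to 0.76 between testis libraries and 0.787 to 0.832 between brain libraries. They were 0.676 to 0.698 between epididymis libraries, and 0.635 to 0.703 between an epididymis and a brain library.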

Other observations

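Levels of genes that lie near each other are given side by side here, with no test of a difference between them. Ifit2 and Ifit3 were above brain in all 6 testis and epididymis libraries, while Ifit1, on the same stretch of chromosome 19, reached higher values in brain, 28.4 to 43.5, than in 2 of the 3 epididymis libraries. Per kilobase of exon, Ifit3 had a mean of 108.5 normalised reads per kb in testis, 154 in epididymis and 5.31 in brain, and Ifit1 had 9.51, 15.6 and 13.5. Ifitm3 stood at a mean per kb of 700.4, 719.5 and 50.1 in the same organs, and Ifitm2 at 161, 23.0 and 0. Mx1 had 35.7, 39.8 and 3.25 per kb, and Mx2 had 32.1, 61.0 and 21.2. Exon lengths are the union of GENCODE M21 exons, which need not be the annotation that the reads were counted on, so these levels place genes beside each other only roughly.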
